A study of Mus musculus with 19 samples.

Results

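Most of the genes described here encode growth factors, their receptors and the SMAD proteins that relay their signals, and all were examined as templates of extrachromosomal circular DNA (eccDNA) in the cervical spinal cord. They were chosen by gene symbol: all rows whose name starts with Fgf, Nrg and a digit, Egf, Erbb, Ntrk, Pdgf, Vegf, Igf1, Igf2, Gdnf, Gfra, Bmp and a digit, Bmpr, Tgfb, Smad, Wnt, Fzd or Notch, or that are named Ret. The Igf2bp genes were left out, and not every ERBB gene is a member. This gave 53 of the 8336 genes in the table. The pattern reads letters and not functions, so that 8 of the 53 are neither ligands, receptors nor SMADs: Fgf12, Fgf13 and Fgf14, which encode FGF homologous factors that stay in the cell, Egfem1 and Egflam, which encode extracellular proteins with EGF-like domains, Fgfr1op, which encodes a centrosomal protein, Tgfbi, an extracellular matrix protein, and Igf1os, an antisense transcript of Igf1. GENCODE release M21 holds 135 protein-coding genes whose names match the pattern, and 52 of them have a row here. The median length of these 52 genes was 91.7 kb, against 16.9 kb for the other 83.

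The ALS group consisted of 9 male mice that constitutively overexpress a human SOD1 transgene with the substitution G93A (line B6.Cg-Tg(SOD1*G93A)1Gur/J), taken at an age of 18 to 21 weeks once motor symptoms had appeared. The promoter of the transgene is not given in the sources used here, and animals that developed no symptoms in that time were excluded, so the group holds symptomatic animals only. The Control group consisted of 10 sex- and age-matched C57BL/6J mice without the transgene. Per animal, 400 ng of DNA of the whole cervical segment were digested with exonuclease V for 7 days to remove linear DNA, and rolling circle amplification (RCA) copied the circles that were left over 48 h. The tissue was not sorted, so the cell type in which a circle arose is not known, and symptoms and transgene go together in the groups, so their parts cannot be told apart. Each value is the log2 of PpGC + 1, where PpGC (produced per gene circles) is the number of split reads, which are reads that span the junction of a circle, summed over all eccDNAs that overlap the gene and then scaled up by how many times shorter the gene is than the longest gene. At 0, the library held no eccDNA of 2 or more split reads over that gene. The values carry no scaling between samples, and the sequencing depth per library is not known. Split reads of these amplified libraries are not independent molecules.

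Growth factors act by binding receptors on the cell surface. FGF, neuregulin, neurotrophin, PDGF, VEGF and IGF ligands bind receptor tyrosine kinases, whereas BMP and TGF-beta ligands bind serine/threonine kinase receptors that phosphorylate SMADs, and WNT ligands bind Frizzled receptors. In the spinal cord these pathways are known for the survival of motor neurons and the formation of myelin. The assay does not measure expression of these genes: it measures circles that overlap the gene anywhere, exon or intron. The table does not say where in a gene a circle lies. Exons covered 0.686% of Egfem1.

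At least 1 member row was above 0 in 18 of the 19 samples, and more of them were above 0 in the ALS samples. In Control 5 and Control 6 this was the Fgfr2 row alone, with 2 split reads each, and that row covers far more than its gene, as described with Fgfr2. The number of members with an eccDNA was 13, 10, 14, 9, 10, 14, 8, 16 and 10 in ALS 1 to ALS 9, with a mean of 11.6 ± 2.74 (SD, n = 9). In the Control samples it was 5, 3, 0, 1, 1, 1, 4, 3, 4 and 3 in Control 1 to Control 10, with a mean of 2.50 ± 1.65 (SD, n = 10). The 2 groups did not overlap. The number of all genes with an eccDNA moved with the group in the same way: it ranged from 694 to 2204 in ALS (median 1114) and from 57 to 723 in Control (median 158). As a share of these genes, the members made up 0.971% ± 0.420 (SD, n = 9) in ALS and 1.24% ± 0.821 (SD, n = 10) in Control, and these ranges overlapped. Over all values, 104 of 477 (21.8%) were above 0 for the members in ALS and 25 of 530 (4.72%) in Control, a ratio of 4.62, beside 15.6% and 2.92% over all genes, a ratio of 5.35.

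**Figure D1:**
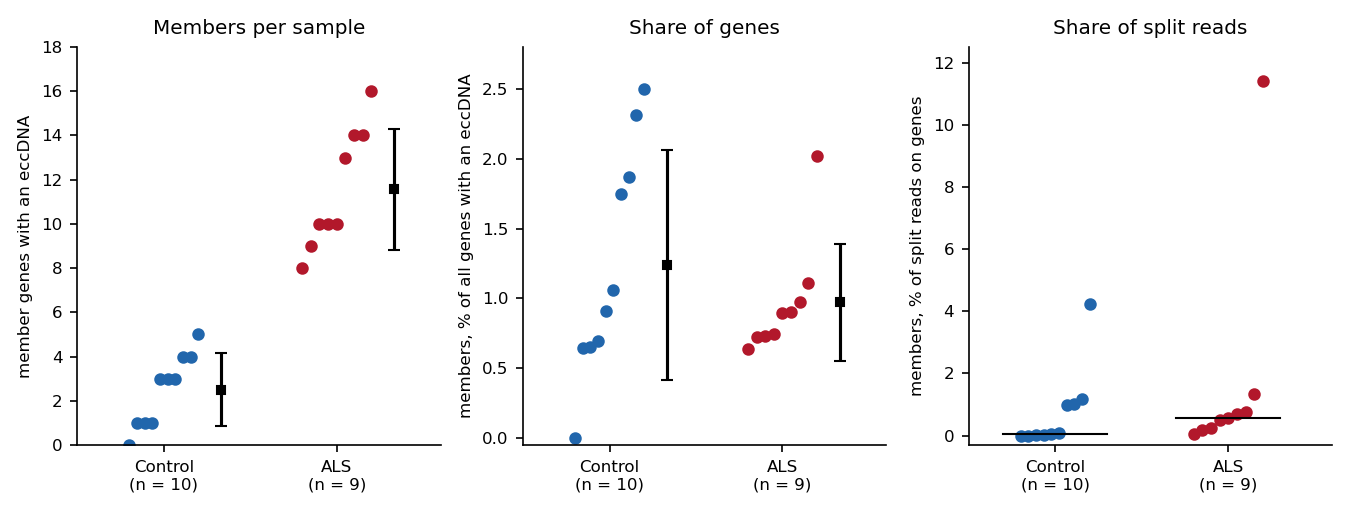
Number of the 53 genes with an eccDNA per sample (left), the same as a percent of all genes with an eccDNA in that sample (middle) and the members' percent of the split reads on genes (right), with 1 point per animal, black squares with bars for the mean ± SD and black lines for the median. Between 8 and 16 genes were seen in each ALS sample and between 0 and 5 in each Control sample, whereas the shares of genes overlapped, and ALS 6 had the highest share of split reads at 11.4%.

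Most members were seen rarely. Of the 53 genes, 26 (49.1%) had an eccDNA in 1 sample only, against 66.2% of all genes. In 23 of these 26 genes it was an ALS sample, which is 43.4% of the members, beside 55.7% of all genes seen in 1 ALS sample and nowhere else. In all, 39 members (73.6%) were seen in ALS and in no Control sample, beside 75.0% of all genes, 10 (18.9%) in both groups, beside 14.0%, and 4 (7.55%) in Control only, beside 10.9%. An eccDNA in at least 4 of the 19 samples was seen for 10 members (18.9%), beside 8.04% of all genes. The mean was higher in ALS for 48 members (90.6%) and lower for 5 (9.43%), beside 86.5% and 13.5% of all genes. The median difference between the group means was 1.20 on the log2 scale over the members and 1.19 over all genes. With each sample's count of genes carrying eccDNA as a covariate in limma, these medians were 1.73 and 0.34. That count ran from 694 to 2204 in ALS and from 57 to 723 in Control. The groups shared little of its range, so this fit can hardly separate group from count.

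**Figure D2:**
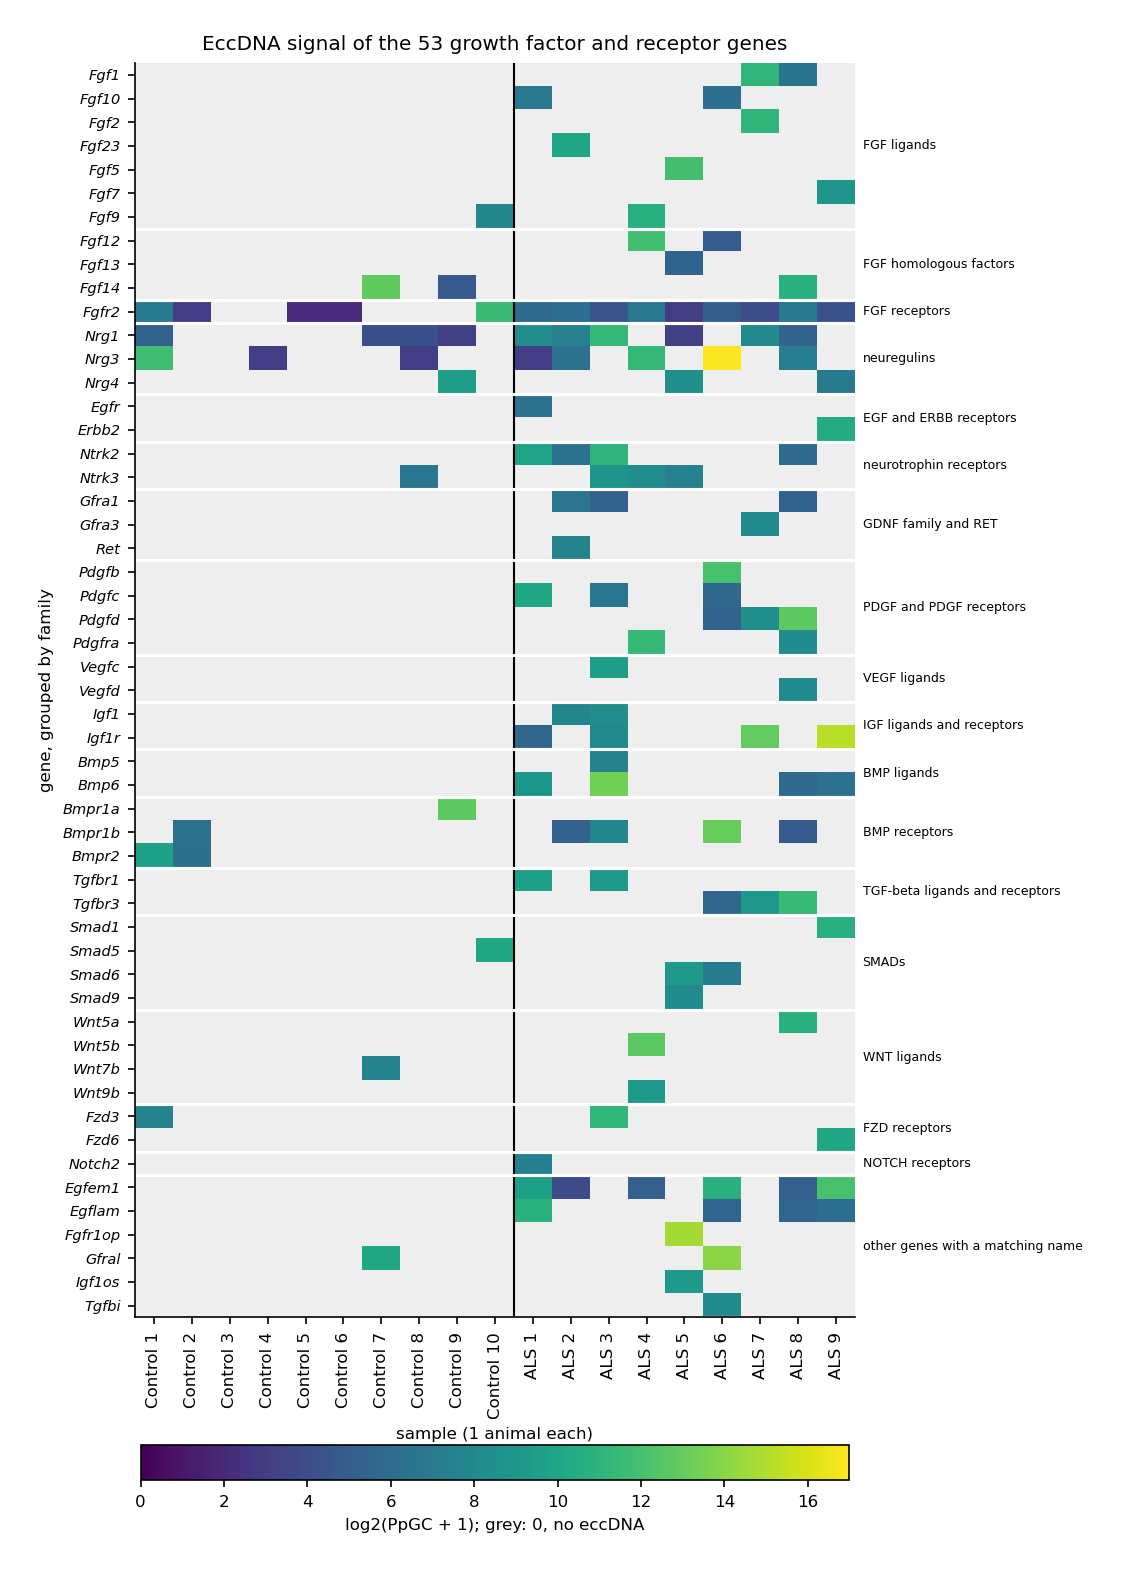
Log2(PpGC + 1) of the 53 genes (rows, grouped by family) in the 10 Control and 9 ALS samples (columns), with grey for a value of 0. Fgfr2 is the only row with a value above 0 in all 9 ALS samples, and 26 rows have a single coloured cell.

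Among the members, 1 gene, Egfem1, was higher in ALS under the thresholds of the study's methods, a difference of means above 1 and a p of the methods' t-test under 0.01, and 0 genes were lower. This is 1.89% of the members, beside 1.33% of all genes tested that were higher (111 of 8336) and 0.0% that were lower. With the exact permutation test of the difference of means, 5 members (9.43%) had a p under 0.05 and a higher mean in ALS, beside 3.72% of all genes, and 0 members had such a p with a lower mean, beside 0.0% of all genes. The other 48 members (90.6%) had an exact p of 0.05 or more, beside 96.3%. The members were longer, with a median of 90.8 kb against 49.4 kb over all genes of known length. Over all genes, the share with an exact p under 0.05 and a higher mean rose with length. It was 0.0735% up to 50 kb and 46.6% above 500 kb, so 3.72% is not a share at equal length. With all values of a gene above 0 in ALS, this exact p depends only on the number of samples: it was 0.474 for 1, 0.211 for 2, 0.0867 for 3, 0.0325 for 4 and 0.0031 for 6 of the 9 ALS samples. After Benjamini-Hochberg adjustment over all 8336 genes, no member passed 0.05, with an adjusted p of 0.487 for Egfem1 by the exact test and 0.382 by the methods' t-test. A single gene at the smallest p the 92378 splits allow, 1.08e-05, would reach 0.0902.

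Egfem1 (chr3:29082023-29691209, mm10, + strand) spans 609 kb and encodes an extracellular protein with EGF-like and EMI domains. Its log2 value was 9.58 in ALS 1, 3.96 in ALS 2, 5.22 in ALS 4, 10.81 in ALS 6, 5.22 in ALS 8 and 12.03 in ALS 9, and 0 in the other 3 ALS samples and in all 10 Control samples. In split reads this was 105, 2, 5, 247, 5 and 575. The signal thus came from 6 of 9 ALS animals and rested on 5 reads or fewer in 3 of them. The mean was 5.20 ± 4.74 (SD, n = 9) in ALS and 0.00 in Control, with a difference of 5.20 ± 1.50 (SE, the methods' t-test p = 0.00286, exact permutation p = 0.0031). It held when each sample's count of genes carrying eccDNA entered limma as a covariate, with an estimate of 7.96 (p = 0.00464), and in each fit that left out 1 sample, with a highest p of 0.00661. Of the Control samples, only Control 1 reached the ALS range of that count. The call of Egfem1 did not hold with log2(PpGC + 100), where the difference was 1.54 (p = 0.0344), nor with an adjusted p over the genes seen in at least 3 samples, which was 0.0746.

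The receptors of the neurotrophins, growth factors of neurons, were seen in 4 and 3 ALS samples. Ntrk2 (chr13:58806569-59133970, + strand), which encodes TrkB, the receptor of BDNF, was at 9.85 in ALS 1, 6.36 in ALS 2, 11.07 in ALS 3 and 5.79 in ALS 8 (68, 6, 159 and 4 split reads) and at 0 elsewhere. The difference was 3.67 ± 1.46 (SE, exact permutation p = 0.0325, n = 9 and 10), and its sign turned with the number of genes as covariate in limma, to -4.37 (p = 0.0216). In ALS 1, all 68 reads were also those of Gm47423, a gene of the table that lies inside Ntrk2. Ntrk3 (chr7:78175959-78738012, - strand), which encodes the related receptor TrkC, was at 8.82, 8.31 and 7.38 in ALS 3, ALS 4 and ALS 5 and at 6.69 in Control 8. The difference was 2.05 ± 1.47 (SE, exact permutation p = 0.141), 1.29 without ALS 3 and 1.36 without ALS 4. With that covariate in limma it was 0.0. ALS 3, the library with the most genes with an eccDNA (2204), was the only sample with an eccDNA from both receptors.

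Igf1r (chr7:67952827-68233668, + strand), the receptor of the trophic factor IGF1, was at 5.60 in ALS 1, 8.07 in ALS 3, 12.91 in ALS 7 and 15.21 in ALS 9 and at 0 in all Control samples, a difference of 4.64 ± 1.93 (SE, exact permutation p = 0.0325). The values rest on 3, 17, 487 and 2397 split reads, so that the 2 highest libraries hold nearly all of them. With the number of genes as covariate in limma, the difference was 2.34 (p = 0.472). Igf1 itself was at 7.82 in ALS 2 and 8.40 in ALS 3 (4 and 6 split reads), and its antisense gene Igf1os at 9.23 in ALS 5 (5 split reads). ALS 3, the library with the most genes with an eccDNA (2204), carried circles of the ligand gene and of the receptor gene.

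The BMP genes showed values in both directions, none of which passed the thresholds of the call. Bmp6 (chr13:38345107-38500302, + strand), a secreted BMP ligand, was at 9.01 in ALS 1, 13.37 in ALS 3, 5.86 in ALS 8 and 6.44 in ALS 9 (18, 370, 2 and 3 split reads) and at 0 elsewhere, a difference of 3.85 ± 1.58 (SE, exact permutation p = 0.0325), which turned to -4.28 (p = 0.0423) with that covariate in limma. In ALS 8 its neighbour Txndc5, which overlaps Bmp6 in part, also had 2 reads, the smallest count the table can hold. Bmp5, another ligand, was at 7.48 in ALS 3 only.

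Of the type I receptors, Bmpr1b (chr3:141837136-142169425, - strand) was at 5.36, 7.83, 13.05 and 4.79 in ALS 2, ALS 3, ALS 6 and ALS 8 and at 6.34 in Control 2, a difference of 2.81 ± 1.62 (SE, exact permutation p = 0.0975), which was 1.61 without ALS 6. The other receptors were seen in Control only. Bmpr1a, also a type I receptor, was at 12.75 in Control 9 (144 split reads). Bmpr2 (chr1:59763400-59879014, + strand), the type II receptor, was at 9.66 in Control 1 and 6.28 in Control 2 (21 and 2 split reads). Its mean was lower in ALS by 1.59 (exact permutation p = 0.474), and by 0.70 without Control 1. With the number of genes as covariate in limma its estimate was -4.66 (p = 0.0336). Together with Smad5, which was at 10.14 in Control 10 only, Bmpr1a and Bmpr2 were the 3 members with a mean lower in ALS by more than 1, which is 5.66% of the members beside 6.71% of all genes. None of the 3 was seen in any ALS sample, and 10.9% of all genes were seen in Control only.

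Of the other SMADs, the BMP-activated Smad1 was at 10.64 in ALS 9 and Smad9 at 8.19 in ALS 5, and the inhibitory Smad6 was at 9.18 in ALS 5 and 7.02 in ALS 6. Tgfbr1, the kinase receptor of TGF-beta, was at 9.75 in ALS 1 and 9.17 in ALS 3. Tgfbr3, the co-receptor betaglycan, was at 5.63, 9.06 and 11.46 in ALS 6, ALS 7 and ALS 8. All were at 0 in the Control samples, as were 75.0% of all genes, and each of their exact permutation p-values was 0.0867 or higher.

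The neuregulins are ligands of the ERBB receptors, and Nrg1 acts on Schwann cells and muscle. Nrg1 was seen in 6 ALS and 4 Control samples, Nrg3 in 5 and 3, and Nrg4 in 2 and 1. Nrg1 (chr8:31814551-32884029, - strand) was at 8.43, 7.38, 11.33, 3.22, 8.01 and 5.41 in ALS 1, ALS 2, ALS 3, ALS 5, ALS 7 and ALS 8. In Control it was at 5.26, 4.14, 4.14 and 3.22 in Control 1, Control 7, Control 8 and Control 9. The groups overlapped, and the difference was 3.19 ± 1.53 (SE, exact permutation p = 0.0552). With the number of genes as covariate in limma it turned to -4.76 (p = 0.0213). Per split reads the largest value was 623 in ALS 3 and the largest in Control was 9.

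Nrg3 (chr14:38368952-39473088, - strand) was at 3.18, 6.42, 11.29, 16.90 and 7.26 in ALS 1, ALS 2, ALS 4, ALS 6 and ALS 8, and at 11.79, 3.18 and 3.18 in Control 1, Control 4 and Control 8. The difference was 3.19 ± 2.28 (SE, exact permutation p = 0.197). ALS 6 held 30367 split reads of Nrg3, which is 11.0% of the 277191 split reads on genes in that library. The next highest were 882 in Control 1 and 622 in ALS 4. Without ALS 6, the difference was 1.70, the lowest of the fits that left out 1 sample. Nrg4 was at 8.55 in ALS 5, 6.97 in ALS 9 and 9.47 in Control 9.

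Of the ERBB receptors among the members, each was seen in 1 sample: Egfr was at 6.34 in ALS 1 and Erbb2 at 10.46 in ALS 9. These stand for 3 and 8 split reads.

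**Figure D3:**
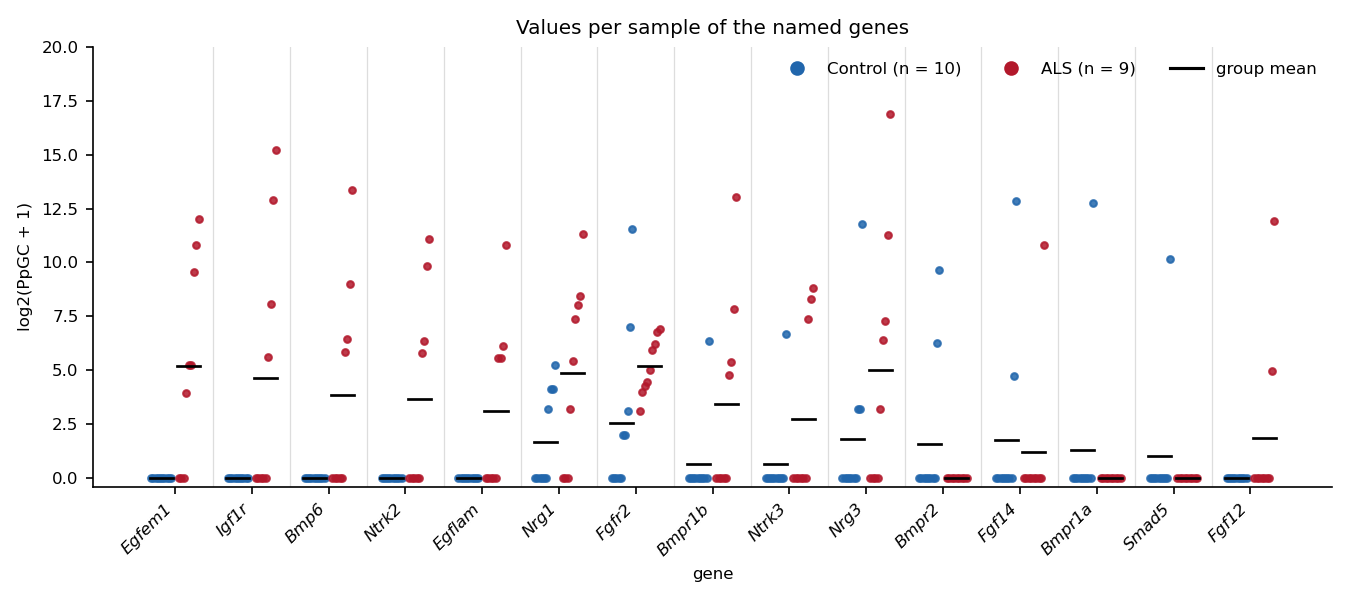
Log2(PpGC + 1) per sample for the 15 genes named by rule, with Control samples in blue, ALS samples in red and a black line at the group mean. In the 5 genes on the left all values above 0 are ALS samples, Control 1, Control 2 and Control 10 reach the ALS values of Fgfr2, and the highest value of all is Nrg3 in ALS 6 at 16.90.

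Fgfr2, which encodes an FGF receptor, was the member seen in the most samples, and its row measures more than that gene. It had an eccDNA in all 9 ALS samples, at 5.93, 6.22, 4.46, 6.79, 3.09, 5.02, 4.00, 6.90 and 4.25 in ALS 1 to ALS 9, and in 5 Control samples, at 6.99, 3.09, 2.00, 2.00 and 11.57 in Control 1, Control 2, Control 5, Control 6 and Control 10. The mean was 5.18 ± 1.34 (SD, n = 9) in ALS and 2.56 ± 3.86 (SD, n = 10) in Control, a difference of 2.62 ± 1.36 (SE, exact permutation p = 0.0699). The highest value was in a Control sample, and without Control 10 the difference was 3.62 with a p of 0.00102 by the methods' t-test, which passes the call. With log2(PpGC + 100) its sign turned, to -0.09 (p = 0.867).

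In GENCODE, Fgfr2 spans chr7:130162451-133123350 (mm10, - strand), which is 2.96 Mb, whereas RefSeq places the gene at 130162451 to 130266808, which is 104 kb. Of the 27 Fgfr2 transcripts in GENCODE M21, 26 lie within the RefSeq bounds, and 1 starts 2.86 Mb further upstream. The deposited values used the long span: with the GENCODE length, the split reads of all 14 values above 0 were whole numbers of at least 2, and with the RefSeq length 0 of 14 were whole and the smallest was 0.0705 reads.

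The sequences at the splice borders of this long transcript, read from the mm10 reference, show what joins the far part to the gene. Each is 30 bases on the - strand, 5′ to 3′, with exon bases in capitals and intron bases in lower case.
First exon, end (chr7:133123126-133123155): GCGACCCAGGACGAGgtaagggcgggggta
Second exon, start (chr7:133081846-133081875): ccattgcatttgcagGGCTTCATCACTGTA
Second exon, end (chr7:133081742-133081771): GACGCATTTCTATCGgtgagttactgtaaa
The third exon, start (chr7:130172925-130172954): cttctttgattgcagTGTATCCATCGAGAT
Both introns carry the usual bases, gt at their start and ag at their end. The first and second exons lie in Ctbp2, a transcriptional co-repressor gene: 12 Ctbp2 transcripts end their exon at the same base as the first exon, and 15 have an exon with both bounds of the second. The third exon lies in Fgfr2, where 18 other transcripts have the same exon. The GENCODE bounds of Fgfr2 therefore run into Ctbp2 and across the genes between them.

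This span holds or touches 16 other genes of the table, 15 of them entirely within it. In 6 of the 14 samples with a value for Fgfr2, the split reads of these other genes summed to exactly those of Fgfr2: 73 in ALS 4, 5 in ALS 5, 21 in ALS 6, 10 in ALS 7, 5 in Control 2 and 2 in Control 5. In ALS 4, for example, the reads were those of Plekha1 (23), Ctbp2 (14), Lhpp (14), Zranb1 (13), Ate1 (4), Eef1akmt2 (3) and Fam53b (2). In 4 samples none of the other genes had an eccDNA: 14 reads in ALS 3, 12 in ALS 9, 84 in Control 1 and 2 in Control 6. In the last 4, the sum over the others was 18 beside 40 in ALS 1, 27 beside 49 in ALS 2, 2 beside 79 in ALS 8 and 83 beside 2024 in Control 10. An eccDNA over several of these genes enters such a sum more than once, so the sums are upper limits: in ALS 1 the overlapping Gm5602 and Plekha1 had 2 reads each, and in ALS 2 Lhpp and Fam53b had 10 each. The remainder lies between genes of the table or in the 104 kb of the RefSeq gene, which is 3.52% of the span, and the table cannot tell which. The values above 0 in all 9 ALS samples are thus values of 2.96 Mb of chromosome 7.

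**Figure D4:**
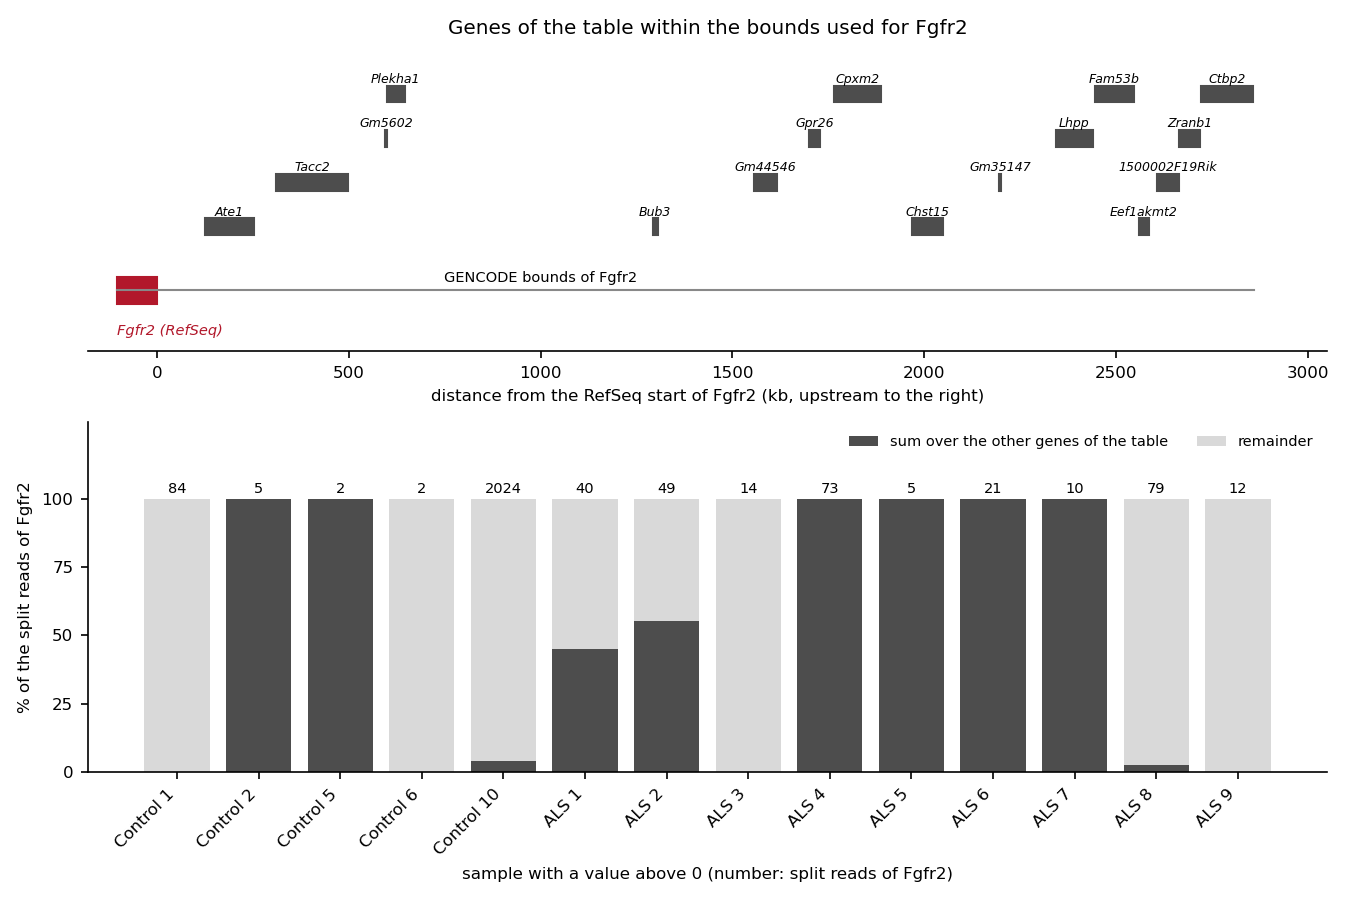
Top, genes of the table (grey boxes) along the GENCODE bounds of Fgfr2 (line), by distance from the RefSeq start in kb, with the RefSeq gene in red. Bottom, for each of the 14 samples with a value, the sum over the other genes (dark) and the remainder (light) as a percent of the split reads of Fgfr2, which stand above the bars; 6 bars are dark to 100%.

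The secreted FGFs were seen in 1 or 2 samples each. Fgf1 was at 11.20 in ALS 7 and 6.62 in ALS 8, and Fgf10 at 6.78 in ALS 1 and 6.20 in ALS 6. Fgf2 was at 11.12 in ALS 7, Fgf5 at 11.99 in ALS 5, Fgf7 at 8.88 in ALS 9, and Fgf23, a phosphate-regulating hormone, at 10.03 in ALS 2. Fgf9 was at 10.72 in ALS 4 and at 7.72 in Control 10. Some of these signals were shared with overlapping genes: the 6 reads of Fgf7 were also those of Fam227b, and the 16 of Fgf9 in ALS 4 those of Gm17109. Nudt6 and Gm43439, which overlap Fgf2 in part, each had the same count of 31 reads as Fgf2 in ALS 7, which alone does not show that the reads are the same.

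The FGF homologous factors stay in the cell, where they bind voltage-gated sodium channels, and are encoded by long genes. Fgf12 (chr16:28160098-28753068, - strand, 593 kb), taken as the marker of the group, was at 11.91 in ALS 4 and 4.95 in ALS 6 (513 and 4 split reads) and at 0 elsewhere, a difference of 1.87 ± 1.29 (SE, exact permutation p = 0.211). Without ALS 4 this difference was 0.62, and with the number of genes as covariate in limma it was 5.71 (p = 0.0154). Fgf13 was at 5.49 in ALS 5. Fgf14 (chr14:123977907-124677127, - strand) was at 12.87 in Control 7, 4.72 in Control 9 and 10.82 in ALS 8 (1182, 4 and 284 split reads), with a mean lower in ALS by 0.56. Without Control 7 its difference was 0.68, with the sign turned, and it was -0.23 without Control 9 and -1.76 without ALS 8.

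The PDGF ligands and receptors guide oligodendrocyte precursors and vessel walls. Pdgfd was at 5.43, 8.49 and 12.76 in ALS 6, ALS 7 and ALS 8, Pdgfc at 10.20, 6.66 and 5.67 in ALS 1, ALS 3 and ALS 6, Pdgfra at 11.40 and 8.18 in ALS 4 and ALS 8, and Pdgfb at 12.03 in ALS 6. All 4 were at 0 in the Control samples, as were 75.0% of all genes, and their smallest exact permutation p was 0.0867. Of the receptor complex of GDNF, a survival factor of motor neurons, the co-receptor gene Gfra1 was at 6.67, 5.37 and 5.37 in ALS 2, ALS 3 and ALS 8 (5, 2 and 2 split reads), and Ret, the signalling receptor, at 7.60 in ALS 2 (2 split reads). ALS 2, with 1346 genes with an eccDNA, held both. Gfra3 was at 8.19 in ALS 7. The more distant receptor gene Gfral was at 14.07 in ALS 6 and at 10.07 in Control 7.

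Of the WNT ligands, Wnt5b was at 12.72 and Wnt9b at 9.21 in ALS 4, Wnt5a at 10.78 in ALS 8, and Wnt7b at 7.57 in Control 7. In Control 7, AU022754, which overlaps Wnt7b in part, had the same count of 2 reads, the smallest the table can hold. Whether these are the same reads is not known. Among the WNT receptors, Fzd3, known for axon guidance, was at 11.16 in ALS 3 and 7.58 in Control 1, and Fzd6 at 10.11 in ALS 9. Notch2 was at 7.35 in ALS 1. The lymphatic growth factors Vegfc and Vegfd were at 9.51 in ALS 3 and 8.25 in ALS 8. None of these genes was seen in more than 1 ALS sample.

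Of the members matched by name only, Egflam (chr15:7206120-7398395, - strand), which encodes the synaptic matrix protein pikachurin, was at 10.83, 5.56, 5.56 and 6.13 in ALS 1, ALS 6, ALS 8 and ALS 9 (79, 2, 2 and 3 split reads) and at 0 in all Control samples, a difference of 3.12 ± 1.27 (SE, exact permutation p = 0.0325). These 4 samples also held Egfem1, which was seen in 6 of the 9 ALS samples. Fgfr1op was at 14.68 in ALS 5 and Tgfbi at 8.21 in ALS 6.

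The 4 genes with an exact p of 0.0325, Igf1r, Bmp6, Ntrk2 and Egflam, were each seen in 4 ALS samples. Without any 1 of these 4, the exact permutation p of the gene was 0.05 or more. With 9 against 10 samples, the mirrored splits, in which all values fall to Control, give a smaller difference of means and are not counted in this p. Without 1 Control sample the groups are of equal size and the mirrored splits count too, so that the exact permutation p was 0.0824 whichever Control sample was left out, while the difference stayed as it was. Of the Control samples, only Control 1, with 723 genes, reached the range in ALS of the number of genes that served as covariate.

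Bmp6, Ntrk2 and Egflam lie on chromosomes whose share of genes varied between the ALS libraries by more than counting error. On chromosome 13, 0.442% of the genes with an eccDNA in ALS 4 were found, against a median of 5.36% over the ALS samples, and on chromosome 15 the share ranged from 1.84% in ALS 5 to 6.07% in ALS 8. The chi-square of these shares between ALS libraries, divided by its degrees of freedom, had a median of 7.38 on chromosomes 1 and 10 to 19 and of 0.829 on chromosomes 2 to 9. On chromosome X, which holds Vegfd and Fgf13, it was 7.23. The first set holds 26 of the 53 members. Egfem1 and Igf1r lie on chromosomes 3 and 7. The part of these shares in the values of the members was not tested.

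The members seen in more samples were the longer ones. Spearman's correlation across the 53 genes between gene length and the number of ALS samples with an eccDNA was 0.65, and 0.32 for the Control samples, beside 0.52 and 0.22 over the 8106 genes with a known length. Without Fgfr2, the member correlations were 0.63 and 0.27. Genes share libraries and are not independent replicates. The 19 members of up to 50 kb were seen in 0.947 ALS samples on average, and the 8 members above 500 kb in 4.12, against 0.941 and 5.07 over all genes of the same classes. The 8 include Fgfr2, placed there by its GENCODE span and seen in all 9 ALS samples. Above 500 kb, 1 of 8 members was higher in ALS by the call, beside 24.1% of the 232 genes of that class. From 200 to 500 kb, 0 of 5 members were, beside 5.38% of 800 genes.

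The length also sets the unit. The smallest signal the table can hold, 2 split reads, is 2.00 in Fgfr2, 3.18 in Nrg3, 3.96 in Egfem1, 7.60 in Pdgfra and 10.03 in Fgf23. The value of 10.03 in Fgf23 is thus 2 reads of a gene of 8.51 kb, whereas 12.03 in Egfem1 is 575 reads. Differences between genes on this scale are not differences in the number of circles.

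**Figure D5:**
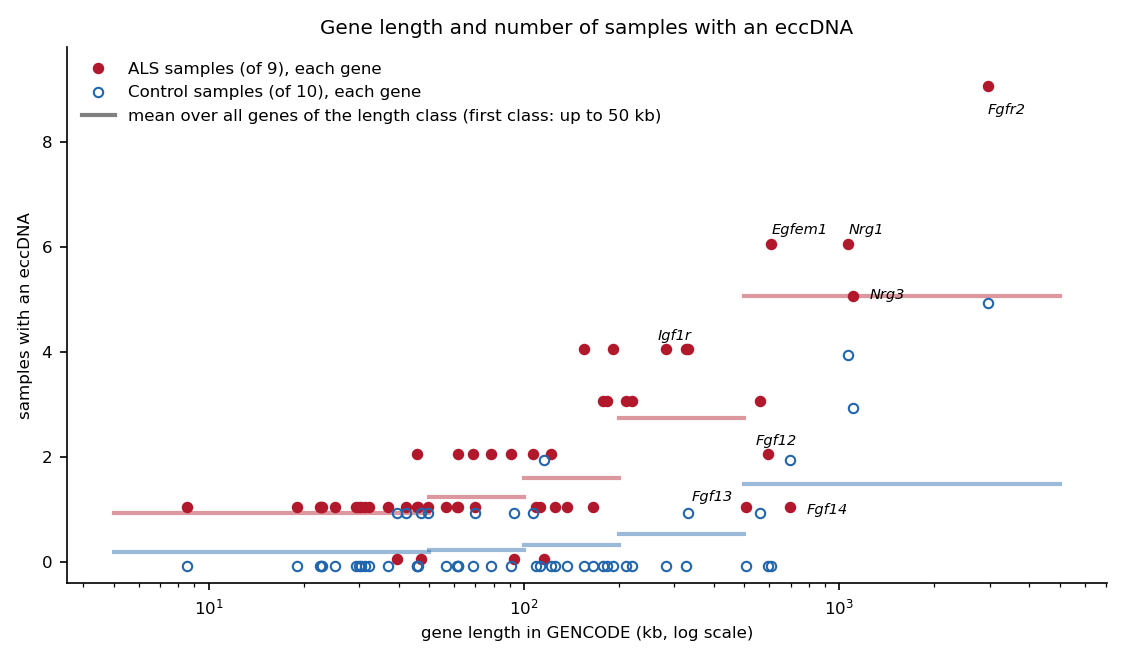
Number of samples with an eccDNA against gene length in kb (log scale) for the 53 genes, red for ALS (of 9) and open blue for Control (of 10), with horizontal bars for the mean over all genes of each length class. Points are shifted slightly up (ALS) or down (Control) so that both show. Members above 500 kb range from 1 ALS sample (Fgf13, Fgf14) to 9 (Fgfr2), around an all-gene mean of 5.07.

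Other genes of the same pathways were counted by the same call. Of 104 genes in 7 lists of adaptors, modulators and further ligands and receptors, 2 were higher in ALS and 0 lower, beside 1.33% and 0.0% of all genes, and the median difference was 1.02. Ltbp1 (chr17:75005568-75392512, + strand), which binds latent TGF-beta in the matrix, was above 0 in all 9 ALS samples and in 1 Control sample, with means of 6.85 ± 1.73 (SD, n = 9) and 0.72 ± 2.29 (SD, n = 10). The difference was 6.12 ± 0.94 (SE, exact permutation p = 7.58e-05), and the p of the methods' t-test adjusted over all genes was 0.0196. Prickle2 (chr6:92370908-92706155, - strand), a planar cell polarity gene of the WNT pathway, was seen in 5 ALS samples and no Control sample, a difference of 3.69 ± 1.17 (SE, exact permutation p = 0.0108, adjusted p of the methods' t-test 0.382). The call of Prickle2 was lost without ALS 1, ALS 2, ALS 3, ALS 8 or ALS 9, and with the covariate, split reads without gene length or presence alone, each of which left 1 gene, Ltbp1.

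By list, 1 of 14 BMP and TGF-beta modulators (Ltbp1) and 1 of 28 WNT components (Prickle2) were higher. Of the 23 adaptors and effectors of receptor tyrosine kinases, 21 other neurotrophic ligands and receptors, 4 further EGF family ligands, 3 IGF binding proteins and 11 NOTCH components, 0 were higher. Over all lists, 7 of 104 genes had an exact permutation p under 0.05 with a higher mean in ALS, beside 3.72% of all genes tested. These were Ltbp1, Prickle2, the NOTCH co-activator gene Maml2 (difference 4.11, exact permutation p = 0.0388) and 4 of the 21 neurotrophic genes. The 4 were Alk, Lifr, Sorcs2 and Sorcs3, with differences of 3.36, 4.44, 3.93 and 3.11. Alk, Lifr and Sorcs3 were each seen in 4 ALS samples and no Control sample, which gives the same exact permutation p of 0.0325 as in the 4 members above. Alk and Lifr are receptors, and Sorcs2 and Sorcs3 are sorting receptors of the Vps10p family. Of the 7 genes, all but Lifr (107 kb) were longer than 200 kb, up to 736 kb for Alk. Over all genes, the share with such a p was 0.0735% up to 50 kb and 46.6% above 500 kb. Neither 3.72% nor the 1.33% of the call is thus a share at equal length. Whether the lists exceed other genes of the same length was not tested.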

How the data were processed

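EccDNA of 9 ALS and 10 Control animals was analysed, 1 library each, grouped by the condition given in the labels. The authors mapped reads to mm10 with Circle_Finder, merged eccDNAs within 10 bp, removed those with fewer than 2 split reads and intersected the rest with GENCODE genes with bedtools. The GENCODE release is not given in the sources used here. They deposited log2 values, log2(PpGC + 1), in which only gene length is corrected for. A gene absent from the table was not analysed here, and there were 0 columns of other samples.

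The members, families and pathway lists were chosen with earlier results of these data known. The values were used as deposited and fitted over all 8336 genes, with the methods' t-test (Student's, for equal variances; sides not stated, two-sided here; difference above 1, p under 0.01) and an exact two-sided permutation test over 92378 splits, Benjamini-Hochberg adjusted over all genes. Split reads were recovered with GENCODE M21 lengths (8106 genes placed, longest gene 4434882 bp), with 98.6% of values above 0 whole within 0.02. Nrg1 gave whole reads with a length of 1070213 bp in place of 1069479 bp. Reads of an eccDNA over several genes count for each. RCA and unknown depth limit the precision: 74016 to 392624 split reads on genes in ALS and 3583 to 123387 in Control. Pairs of libraries shared at most 13.5% of their genes, so all were counted separately. Genes were named by a rule: members passing the call, others seen in at least 4 samples or 2 Control samples, lower in ALS by more than 1, the 5 longest, Fgf12, and list genes passing the call. All other members were given by value to account for each, and the list genes with an exact p under 0.05 were named after their values were seen. Tools were limma 3.58.1 under R 4.3.3, and Python 3.11.15 with SciPy 1.17.1, NumPy 2.4.6, pandas 2.3.3 and matplotlib 3.10.9. The tests were tested on simulated data. Alternatives were limma, exact and adjusted p, p under 0.05, one-sided p, each sample's number of genes as covariate, equal totals, split reads as such, a pseudocount of 100, Fisher's exact test of presence, at least 3 samples, a replicate block and leaving out each sample. The restriction to chromosomes 2 to 9 and X, the alternatives for the count with an exact p under 0.05 and the length correlation without Fgfr2 were chosen after seeing the data.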

Additional observations from a re-analysis of the deposited data

Results flagged for a closer look

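In 36 groups of values (15 genes and 3 measures per sample, in ALS and in Control), 11 had a sample far from the others by Dixon's ratio of the gap to the range. Chance flags about 1 in 20 groups of continuous values, and values with many zeros meet the ratio more easily. In 5 of them the sample was the only one of its group with an eccDNA, which gives a ratio of 1.0: Control 2 in Bmpr1b, Control 8 in Ntrk3, ALS 8 in Fgf14, Control 9 in Bmpr1a and Control 10 in Smad5. Control 1 stood apart in Nrg3 (ratio 0.731), Control 7 in Fgf14 (0.633) and ALS 4 in Fgf12 (0.584). The members made up 2.02% of the genes with an eccDNA in ALS 6, against 1.11% in the next ALS sample (0.657). Their share of split reads was 11.4% in ALS 6, against 1.33% in the next (0.889), and 4.23% in Control 10, against 1.18% (0.721). The share in ALS 6 is that of Nrg3 and the share in Control 10 that of the Fgfr2 row.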

How the results depend on the processing

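The count of 1 member higher in ALS became 0 with an adjusted p of the methods' t-test under 0.05, with a pseudocount of 100 and with genes seen in at least 3 samples, and 5 with its unadjusted p under 0.05. Leaving out each sample gave 1 to 2, the latter without Control 10, when Fgfr2 passed. The count of 0 members lower became 1 (Fzd3) with the number of genes as covariate, a fit that called 70 genes lower and 34 higher over the table. It was 0 by the methods' t-test at an unadjusted p under 0.05 as well, by the exact and limma tests and in all fits that left out 1 sample. The 2 pathway genes became 1 under the adjusted p, exact p, covariate, split reads without gene length, pseudocount 100, presence or absence, 3-sample minimum, replicate block and chromosomes 2 to 9 and X, and 8 with that unadjusted p under 0.05, with 1 to 3 on leaving out each sample. The 1 gene was Ltbp1 except on those chromosomes, where it was Prickle2. The 5 members with an exact p under 0.05 became 2 on chromosomes 2 to 9 and X, and 1 to 6 on leaving out each sample, a range set in part by the test, since without a Control sample the groups are equal and the mirrored splits count in the exact p as well. Chromosome X, whose shares also varied, was kept in this restriction. The difference in members per sample, 9.06, was 5.31 with values of at least 8 only, and 8.50 to 9.50 without each sample. Among the 15 genes named by rule, Bmp6 (-4.28), Ntrk2 (-4.37) and Nrg1 (-4.76) were reversed under the covariate and Fgfr2 (-0.09) under the pseudocount of 100. Fgf14 was reversed without Control 7 (0.68) and negative without any other sample (-1.76 to 0.68 over all samples left out). Fzd3, which is not among the 15, was higher in ALS by 0.48 in the main fit and was called lower under the covariate. Same-numbered samples did not deviate together (correlations -0.021 to 0.023 over 9 pairs). With the replicate block, which uses no information on Control 10, the member called was Fgfr2 (3.62, p = 0.0026) and not Egfem1 (5.20, p = 0.011). Scaling to equal totals moved the median of all genes from 1.19 to 1.32 and that of the members from 1.20 to 1.25. With split reads without gene length, these medians were 0.36 and 0.47, and under the covariate they were 0.34 and 1.73. The covariate also moved Nrg3 from 3.19 to 6.30, Fgfr2 from 2.62 to 1.43 and Smad5 from -1.01 to -0.43. The causes of these changes were not tested. Depth per library is unknown, and a gene with fewer than 2 split reads per eccDNA is not seen.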
